A study of Homo sapiens with 18 samples.

Results

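The genes described here are 36 lysosomal genes, chosen by name: PSAP, which encodes prosaposin, and 35 other genes for lysosomal enzymes, membrane proteins, proton pump subunits and a transcription factor. All 36 were listed in both expression tables, among 15358 genes in MCF10A cells and 15257 in hTERT RPE-1 cells, and all 36 passed the filter on low values, which asked that 3 or more of a line's 9 libraries reach a value of 10. PSAP was included because the study labels it a target of both microRNA mimics. The data behind that label were not analysed here.

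PolyA+ RNAseq was carried out on MCF10A, an immortalized non-tumour line of human breast epithelium, and on hTERT RPE-1 cells (RPE-1 hereafter), an immortalized line from human retinal pigment epithelium. Cells of each line received 30 nM of a non-targeting siRNA (siNT), of a mimic of hsa-miR-28-5p (miR-28) or of a mimic of hsa-miR-708-5p (miR-708) for 72 h. Each group held 3 biological replicates, numbered 7, 8 and 9 in MCF10A and 1, 2 and 3 in RPE-1. Both mimics belong to the MIR-28 family, whose members have the same seed, and a mimic is a synthetic duplex that raises a mature microRNA far above its natural level.

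Lysosomes are acidic compartments in which proteins, lipids and glycans are broken down. Prosaposin is cut there into the saposins, small proteins that present sphingolipids to the hydrolases that degrade them, and it travels to the lysosome in part with progranulin. Many lysosomal genes share a promoter element, the CLEAR motif, which is bound by TFEB and its relatives, the MiT/TFE factors.

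The sequence of the miR-708 mimic's parent microRNA is shown first, because the 3′ UTR of PSAP holds matches to its seed. The mature hsa-miR-708-5p of RefSeq (GRCh38.p14, chromosome 11, 79402077 to 79402099, minus strand) is 23 nt long, and capitals mark its seed, bases 2 to 8.
hsa-miR-708-5p: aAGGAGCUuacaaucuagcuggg

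PSAP lies on chromosome 10 (71816298 to 71851251, minus strand, hg38) and has 14 exons. In its annotated transcript both matches fall in exon 14, in a 3′ UTR of 1143 nt, at positions 856 and 892 from the stop codon. The match at 71816542 to 71816549 is an 8mer, which pairs with the whole seed and adds an A across from base 1 of the microRNA. The match at 71816580 to 71816585 is a 6mer. Capitals mark the matched bases, in the sense of the transcript.
PSAP 3′ UTR 8mer: ggatggcgAGCTCCTAggcctctg
PSAP 3′ UTR 6mer: tcatagatGCTCCTtttgacct

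A second set of matches is shown for ARSB, the member with the next largest decrease, and for ATP6V1A, a proton pump subunit outside the 36. ARSB (chromosome 5, 78777209 to 78986087, minus strand) has no seed match of 6 or more bases in its 3′ UTR of 3188 nt. Its coding sequence has an 8mer in exon 2 (78969106 to 78969113) and a 7mer in exon 8 (78780503 to 78780509). ATP6V1A (chromosome 3, plus strand) has an 8mer near the start of its 3′ UTR (113809469 to 113809476), at position 42 of 2629. It was chosen for display after its values were seen. The 3′ UTRs of GNPTG, GGA2 and HGSNAT, also on the longer list of lysosomal genes, hold an 8mer as well. GNPTG was called in none of the 4 comparisons with siNT. GGA2 was higher with miR-708 in MCF10A (0.56 on the log2 scale) and lower with miR-28 in RPE-1 (-0.29). HGSNAT was lower in all but miR-708 in MCF10A (-0.08).
ARSB coding 8mer: cctgccccAGCTCCTAaaagaagc
ARSB coding 7mer: cgtcacaaAGCTCCTgtcccgcc
ATP6V1A 3′ UTR 8mer: cctcagcaAGCTCCTAtgtgtata

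Matches in the other members were counted in the same transcripts. A 7mer or 8mer in the 3′ UTR was found in 4 of the 36 members (11.1%), which were PSAP, SCARB2, ARSA and TFEB, compared with 18.7% of all tested genes with a matched transcript in either line. An 8mer was found in PSAP and SCARB2 (5.56% of members, 2.47% of genes). In the coding sequence the shares for a 7mer or 8mer were 16.7% of members, and 23.8% of genes in MCF10A or 24.2% in RPE-1. A coding match of 6 or more bases was found in 22 of the 36 members (61.1%), compared with 45.7% and 46% of genes. Members with such a match went both ways in RPE-1. LAMP1, GRN, CTSA, SGSH and NPC1 were among those called higher with both mimics. CTSD, MAN2B1, NAGLU, ARSB and TFEB were called lower with both. A match describes letters in 1 annotated transcript per gene and is not evidence of binding.

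The libraries held 19.4 to 31.7 M reads on genes in MCF10A and 23.8 to 40.3 M in RPE-1, as estimated from the smallest step between low values. RPS28, the ribosomal protein gene that the study followed up, had log2 fold changes of -2.79 and -2.65 in MCF10A and -4.47 and -4.40 in RPE-1 with miR-28 and miR-708. All 9 breast epithelial markers were listed in MCF10A, and of 9 retinal pigment epithelial markers RPE65, TYR and TTR were not listed in RPE-1. The summed breast markers in MCF10A were 278000 to 286000 with siNT, 203000 to 217000 with miR-28 and 173000 to 202000 with miR-708. The summed retinal markers in RPE-1 were 2940 to 3780, 1940 to 2080 and 2110 to 2280. Both sums were lower with the mimics, with no overlap with siNT. The single retinal markers in RPE-1 did not move alike. MITF had means of 1910 with siNT, 1090 with miR-28 and 1290 with miR-708, and OTX2 was also lower. PMEL and SERPINF1 had lower means with the mimics, but at mostly low values and with uneven siNT libraries. The highest siNT library was 544 for PMEL, whose siNT mean was 189, and 54.3 for SERPINF1, whose siNT mean was 25.7. BEST1 had means of 166, 230 and 205, and RLBP1, at low values, was also higher. RPE65 was listed in MCF10A. In RPE-1, miR-28 replicate 1 stood apart, with 15.1% of its summed signal on rRNA genes against 4.23% to 7.2% in the other 8 libraries. The summed level of 10 interferon-stimulated genes moved with the mimics. In MCF10A it was 991 to 1200 with siNT, 1240 to 2080 with miR-28 and 49100 to 98300 with miR-708. In RPE-1, where 8 of the 10 were listed, it was 1460 to 1960 with siNT and 208000 to 262000 with miR-708. With miR-28 in RPE-1 it was 17800, 268000 and 161000 in replicates 1, 2 and 3. The part of these marker and interferon-stimulated changes in the results was not tested.

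PSAP was among the most abundant members in cells that received siNT. Levels are given per kb of transcript so that genes can be compared within a line. In MCF10A the order began with CTSD at 6086 ± 418, CD63 at 5265 ± 349 and PSAP at 5261 ± 190 normalised reads per kb (mean ± SD, n = 3), and the last 2 did not differ beyond their spread. In RPE-1 it began with CTSD at 24806 ± 4713 and PSAP at 23680 ± 2967, again within their spread, and CD63 followed at 14602 ± 967. CTSD, the aspartic protease cathepsin D, and CD63, a tetraspanin of late endosomes and lysosomes, are both abundant lysosomal components. TFEB was near the bottom of the order, at 57.8 ± 2.03 in MCF10A and 93.8 ± 8.85 in RPE-1.

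PSAP fell with both mimics in both lines. In MCF10A its normalised read count was 14038, 14291 and 15044 with siNT in replicates 7, 8 and 9. With miR-28 it was 5704, 6724 and 7043, and with miR-708 it was 7092, 8038 and 8276. Every mimic library was below every siNT library, and the mean was 44.9% of the siNT mean with miR-28 and 54.0% with miR-708. In RPE-1 it was 70528, 68990 and 55698 with siNT in replicates 1, 2 and 3. With miR-28 it was 26386, 27292 and 24561, and with miR-708 it was 23166, 24490 and 19516. The groups did not overlap there either, and the means were 40.1% and 34.4% of the siNT mean.

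The log2 fold change of PSAP was -1.16 with miR-28 (SE 0.11, adjusted p = 0.000149) and -0.89 with miR-708 (SE 0.11, adjusted p = 0.000174) in MCF10A, by limma with Benjamini-Hochberg adjustment over all genes on the log2(value + 1) scale. In RPE-1 it was -1.31 with miR-28 (SE 0.13, adjusted p = 3.12e-05) and -1.54 with miR-708 (SE 0.13, adjusted p = 4.6e-06), by the same limma test. In each of these 4 comparisons it was the lowest value of the 36 members. Of all genes tested, 1.6% and 5.32% had lower values in MCF10A, and 3.8% and 5.3% in RPE-1. The exact two-sided permutation test gave p = 0.1 for each comparison, the smallest p that 3 libraries against 3 allow. The call held with each library left out. Under quantile normalization the change with miR-708 in RPE-1 was -0.96 in place of -1.54, still called.

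**Figure D1:**
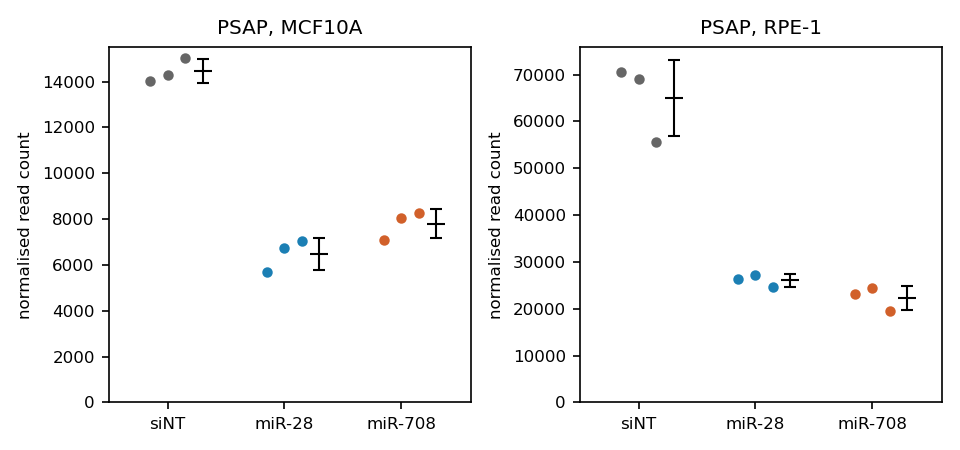
Normalised read count of PSAP in each library (points) with the mean and SD of the 3 replicates (bars), for siNT, miR-28 and miR-708 in MCF10A (left) and RPE-1 (right). The 6 mimic libraries lie below the 3 siNT libraries in each line, at means of 44.9% and 54.0% of siNT in MCF10A and 40.1% and 34.4% in RPE-1.

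The share of PSAP in the summed per-kb level of the 36 members fell accordingly. Its share in MCF10A was 11.8% to 12.7% with siNT, 5.42% to 6.01% with miR-28 and 5.09% to 5.58% with miR-708. Its share in RPE-1 was 20.7% to 22.6%, 8.91% to 9.62% and 7.84% to 8.63%. Among the members, PSAP moved from place 3 to place 6 in MCF10A and from place 2 to place 3 in RPE-1.

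The other members did not follow PSAP as a group. In MCF10A with miR-28, 5 of the 36 members were called higher and 3 lower (adjusted p below 0.05), beside 10.7% of all genes called higher and 12% lower (22.7% in either direction). Their median log2 fold change was 0.08, beside 0.01 for all genes. Replicate numbers paired the mimic and siNT libraries of MCF10A. With the replicate as a block 8 members were called higher, CTSA, ASAH1 and SGSH in addition, and 3 lower, beside 2129 and 2279 of 14726 genes. With miR-708 in MCF10A, 15 members were called higher and 2 lower, beside 15.5% and 17.3% of all genes (32.8% in either direction), with a median of 0.27. Leaving out miR-28 replicate 8 or 9, or siNT replicate 8 or 9, left 2 members called higher with miR-28, and leaving out siNT replicate 7 left 3.

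In RPE-1 with miR-28, 18 members were called higher and 7 lower, beside 23.3% and 23.5% of all genes (46.8% in either direction), with a median of 0.30. Without miR-28 replicate 1, the library with the high rRNA share, the counts were 16 and 6. Leaving out siNT replicate 1 or 2 left 4 called lower. With miR-708 in RPE-1, 15 were called higher and 9 lower, beside 30.9% and 31.2% of all genes (62.1% in either direction), with a median of 0.04 (-0.035 without siNT replicate 3 and 0.114 without siNT replicate 2). Scaling to library size instead moved the median of all genes by 0.32 in this comparison. It gave 21 members higher and 7 lower, beside 6794 and 2658 of 14522 genes. The member median was then 0.36, close to that shift. The corresponding split of members with miR-28 in MCF10A was 8 and 2, beside 2275 and 1163 of 14751 genes. The median of all genes moved by 0.12 there.

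Counts of members whose 3 mimic libraries all lay on one side of all 3 siNT libraries gave a similar order. In MCF10A with miR-28, 9 members lay above siNT (19.7% of all genes) and 8 below (22.1%). With miR-708 there, 18 lay above (22.6%) and 6 below (23.9%). For RPE-1 these counts were 18 above (26.9%) and 7 below (27.5%) with miR-28, and 16 above (34.3%) and 10 below (34.9%) with miR-708.

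**Figure D2:**
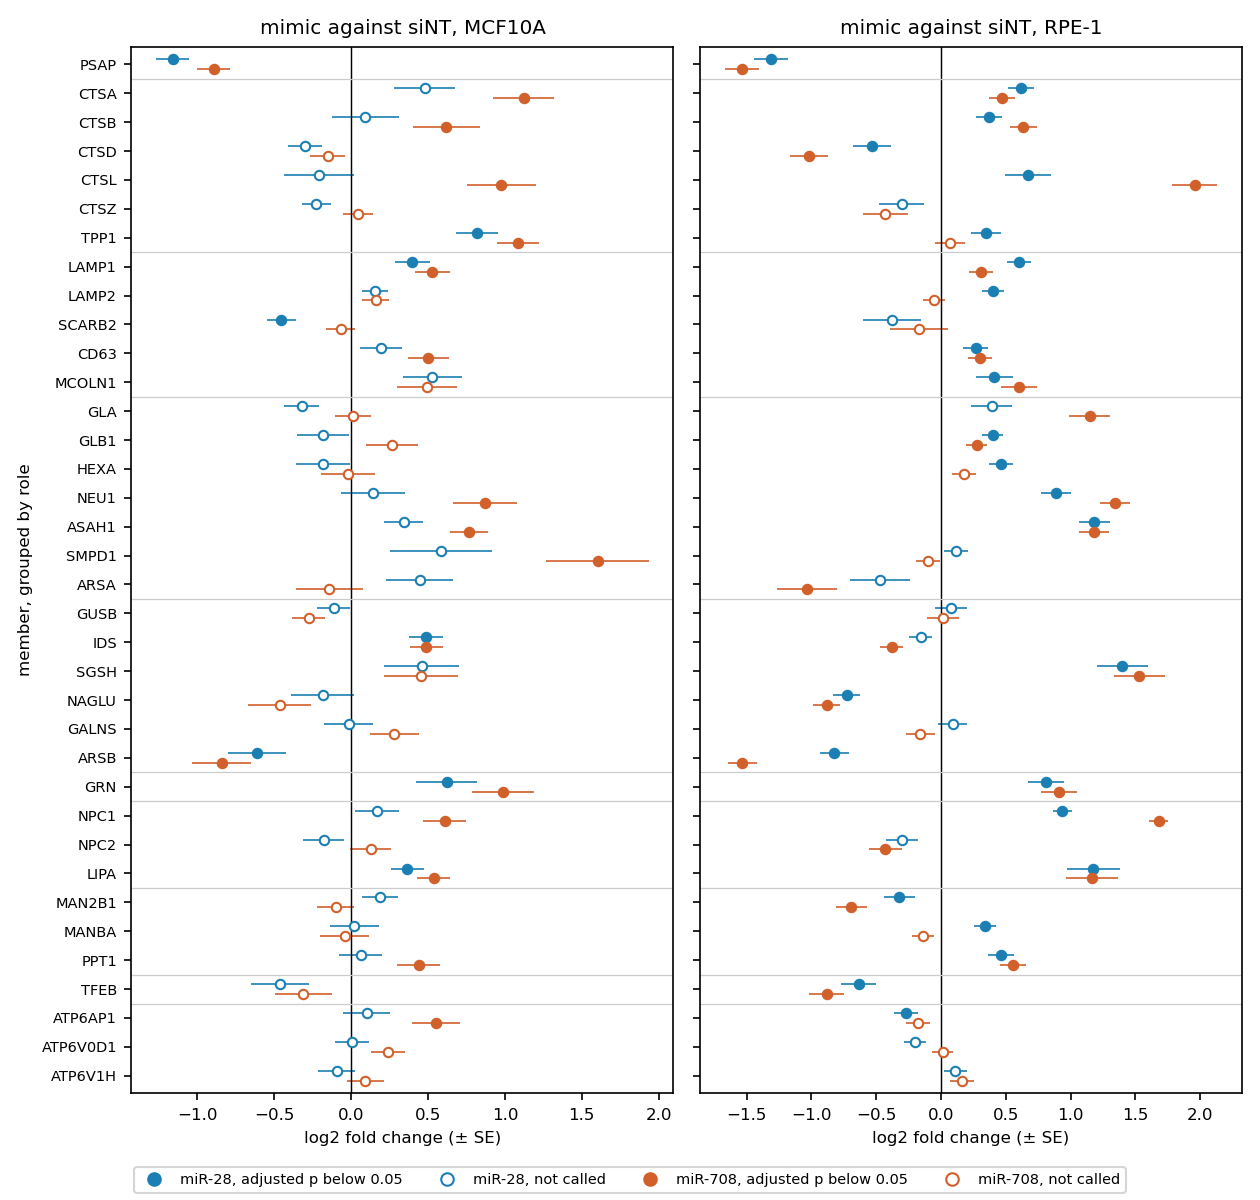
Log2 fold change (± SE, n = 3 against 3) of each of the 36 members with miR-28 (blue) and miR-708 (orange) against siNT in MCF10A (left) and RPE-1 (right), grouped by role. Filled points passed adjusted p below 0.05. PSAP has the lowest value in each comparison, while 15 members were called higher with miR-708 in each line.

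The comparisons with the mimics share their siNT libraries, so each is given with its own values. Members called lower in all 4 comparisons were PSAP and ARSB, and members called higher in all 4 were LAMP1, GRN and LIPA, beside 5.67% and 4.33% of the 13339 genes tested in both lines. CTSZ, GUSB, GALNS, ATP6V0D1 and ATP6V1H were called in none. In MCF10A, 5 members were called higher with both mimics (8.11% of all genes) and 2 lower (9.81%). In RPE-1, 14 were called higher with both (20.1%) and 6 lower (20.8%).

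GRN encodes progranulin, the precursor of the granulins. In MCF10A it was 2401, 2707 and 2347 with siNT, 2747, 4145 and 4867 with miR-28, and 3834, 5249 and 5918 with miR-708. Both mimic groups lay above siNT, although miR-28 replicate 7 exceeded the highest siNT library by little. The RPE-1 values were 6381, 6767 and 4746 with siNT, 9353, 11010 and 10695 with miR-28, and 10452, 12597 and 10301 with miR-708, with no overlap. The log2 fold changes were 0.62 and 0.99 in MCF10A (adjusted p = 0.0453 and 0.00347, limma with Benjamini-Hochberg adjustment) and 0.81 and 0.91 in RPE-1 (adjusted p = 0.000977 and 0.000242).

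LAMP1, a major glycoprotein of the lysosomal membrane, was 5040, 5261 and 5308 with siNT in MCF10A, 5741, 7150 and 7846 with miR-28, and 7250, 7260 and 8005 with miR-708. In RPE-1 it was 12575, 13630 and 11592 with siNT, 18304, 19420 and 19530 with miR-28, and 15545, 16011 and 15191 with miR-708. The mimic libraries were above siNT in both lines. The log2 fold changes were 0.40 and 0.53 in MCF10A and 0.60 and 0.31 in RPE-1 (adjusted p = 0.0299, 0.00523, 0.000408 and 0.012, limma with Benjamini-Hochberg adjustment). LIPA, the lysosomal acid lipase that releases cholesterol from its esters, had log2 fold changes of 0.37 and 0.54 in MCF10A and 1.18 and 1.17 in RPE-1 with miR-28 and miR-708. Its RPE-1 values with miR-28 were 8585, 16862 and 13442, against 4944 to 6385 with siNT, so replicate 1 was the lowest of that group. The same library had the high rRNA share and the lowest interferon-stimulated sum of the group, and it was the highest of the group for ASAH1. The part of these library traits was not tested.

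ARSB, arylsulfatase B, removes sulfate from dermatan and chondroitin sulfate. Its values in MCF10A were 279, 417 and 435 with siNT, 234.6, 240.5 and 250.3 with miR-28, and 247, 190 and 186 with miR-708. In RPE-1 they were 2373, 2579 and 2622 with siNT, 1266, 1489 and 1535 with miR-28, and 807, 807 and 1017 with miR-708. All mimic libraries were below all siNT libraries. The log2 fold changes were -0.61 and -0.84 in MCF10A and -0.82 and -1.53 in RPE-1, each the second lowest of the members (adjusted p = 0.0388, 0.00604, 0.000239 and 1.74e-06, limma with Benjamini-Hochberg adjustment).

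The calls of GRN, LAMP1, LIPA and ARSB with miR-28 in MCF10A were each lost when miR-28 replicate 8 or 9, or siNT replicate 8 or 9, was left out. Those of GRN and LAMP1 were also lost without siNT replicate 7, and that of GRN without miR-708 replicate 8. That of ARSB was also lost without miR-28 replicate 7 and under library size scaling (-0.50). Without the variance trend the calls of GRN, LAMP1 and LIPA were lost. In all, the calls were lost in 7 (GRN), 6 (LAMP1), 5 (LIPA) and 7 (ARSB) of 17 alternatives.

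**Figure D3:**
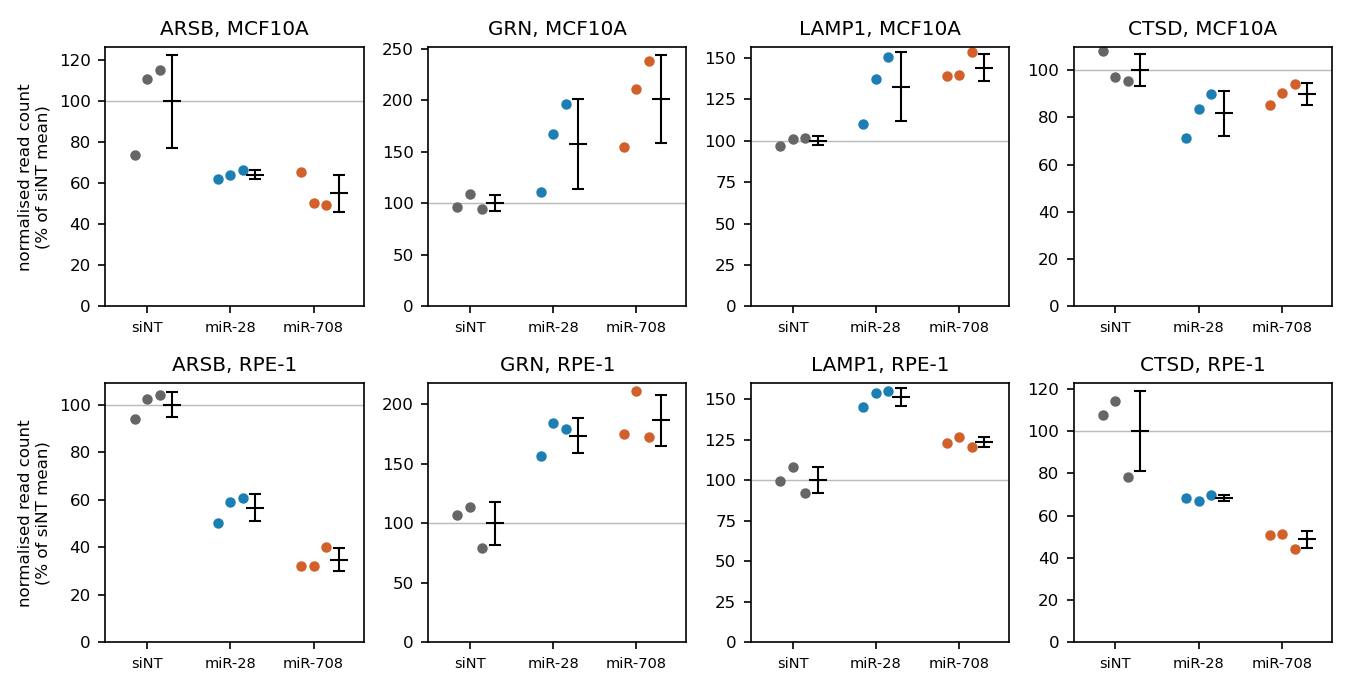
Normalised read count of ARSB, GRN, LAMP1 and CTSD in each library as a percentage of the siNT mean of the line, with the mean and SD of 3 replicates, in MCF10A (top) and RPE-1 (bottom). ARSB lies below siNT and GRN and LAMP1 above it with both mimics in both lines, while CTSD lies below siNT in both lines, with calls in RPE-1. The difference between the lines was called for CTSD with miR-708 (adjusted p = 0.000925, limma) and not with miR-28 (adjusted p = 0.382).

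Among the 6 proteases, the number called higher and lower with miR-28 and miR-708 was 1 and 0, then 4 and 0, in MCF10A, and 4 and 1, then 3 and 1, in RPE-1. The shares of all genes called higher and lower were 10.7% and 12%, then 15.5% and 17.3%, in MCF10A, and 23.3% and 23.5%, then 30.9% and 31.2%, in RPE-1, and 1 of 6 is 16.7%. TPP1, the tripeptidyl peptidase of the lysosome, was 1648, 1741 and 1741 with siNT in MCF10A, 2569, 3330 and 3206 with miR-28, and 2942, 3984 and 4070 with miR-708. Its log2 fold changes of 0.82 and 1.08 were the largest shared increase in that line (adjusted p = 0.00245 and 0.000224, limma with Benjamini-Hochberg adjustment). In RPE-1 they were 0.34 (adjusted p = 0.0307, limma, lost without miR-28 replicate 1 or siNT replicate 3) and 0.07 (adjusted p = 0.61).

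CTSD, which takes part in cutting prosaposin, went the other way in RPE-1. There it was 54805, 58162 and 39961 with siNT, 34792, 34187 and 35602 with miR-28, and 25892, 26258 and 22531 with miR-708, with no overlap between mimics and siNT. Its log2 fold changes in RPE-1 were -0.53 (adjusted p = 0.0127) and -1.02 (adjusted p = 0.000147), by limma with Benjamini-Hochberg adjustment. The first lost its call without siNT replicate 1 or 2, and under quantile normalization (-0.19, adjusted p = 0.271). In MCF10A the values were -0.30 (adjusted p = 0.0752) and -0.15 (adjusted p = 0.314, limma).

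CTSL, the cysteine protease cathepsin L, separated the mimics. MCF10A libraries held 2891, 3654 and 3487 with siNT, 2065, 3309 and 3482 with miR-28, and 4665, 7371 and 8159 with miR-708. RPE-1 libraries held 1565, 1378 and 1893, then 2057, 3315 and 2428, then 5807, 7212 and 5728. The miR-708 libraries were above all others of their line. The log2 difference of miR-708 against miR-28 was 1.19 in MCF10A (SE 0.23, adjusted p = 0.0224) and 1.29 in RPE-1 (SE 0.18, adjusted p = 0.00131), by limma with Benjamini-Hochberg adjustment.

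In the main fit CTSL was the only member that differed between the mimics in MCF10A, beside 1.55% of all genes (1.28% higher). The CTSL call was lost without miR-28 replicate 7 or 8 or miR-708 replicate 8 or 9. With the replicate as a block 9 members differed in MCF10A, beside 429 genes higher and 214 lower of 14726. In RPE-1, 10 members differed, beside 21.2% of all genes, 4 higher with miR-708 (9.88%) and 6 lower (11.4%). The count was 6 without miR-28 replicate 3 or miR-708 replicate 1. Under library size scaling the split was 9 and 1, beside 3947 and 707 of 14522 genes, and the median of all genes moved by 0.23.

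The next differences between the mimics in RPE-1 were 0.75 for GLA, 0.74 for NPC1 and -0.71 for ARSB (adjusted p = 0.00837, 0.000338 and 0.00271, limma with Benjamini-Hochberg adjustment). For PSAP the difference of miR-708 against miR-28 was 0.27 in MCF10A (95% interval 0.03 to 0.50, adjusted p = 0.261, limma) and -0.23 in RPE-1 (-0.52 to 0.07, adjusted p = 0.251, limma). The interval covers 1 gene without adjustment. For GRN it was 0.37 (-0.07 to 0.81) in MCF10A and 0.10 (-0.21 to 0.41) in RPE-1.

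Several of the 7 sphingolipid and glycolipid hydrolases work with saposins. In MCF10A, 0 of the 7 were called with miR-28 and 3 were higher with miR-708 (42.9%, beside 15.5% of all genes). In RPE-1, 4 were higher with each mimic (57.1%, beside 23.3% and 30.9% of all genes) and 1 was lower with miR-708 (14.3%, beside 31.2%). ASAH1, the acid ceramidase, was 2442, 2705 and 2473 with siNT in RPE-1, 6495, 5738 and 5131 with miR-28, and 6241, 6260 and 4874 with miR-708, a log2 fold change of 1.18 with each (adjusted p = 3.16e-05 and 1.38e-05, limma with Benjamini-Hochberg adjustment). In MCF10A it was 0.34 (adjusted p = 0.0699, and 0.0231 with the replicate block) and 0.77 (adjusted p = 0.00102, limma).

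GLA, alpha-galactosidase A, was 239, 187 and 213 with siNT in RPE-1, 260, 351 and 238 with miR-28, and 465, 495 and 454 with miR-708. Only the miR-708 group was clear of siNT, with a change of 1.15 on the log2 scale (limma, Benjamini-Hochberg adjusted p = 0.000109). ARSA, arylsulfatase A, which degrades sulfatide with saposin B, was 679, 797 and 465 with siNT in RPE-1, 370, 539 and 474 with miR-28, and 250, 412 and 283 with miR-708. The miR-708 group lay below siNT (log2 fold change -1.03, adjusted p = 0.00288, limma), while the miR-28 group overlapped it (-0.47, adjusted p = 0.122).

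SMPD1, acid sphingomyelinase, was 116, 137 and 118 with siNT in MCF10A, 122, 183 and 285 with miR-28, and 252, 348 and 607 with miR-708. The spread within the mimic groups was wide, and the change with miR-708 was 1.60 (SE 0.33, adjusted p = 0.00395, limma with Benjamini-Hochberg adjustment). In RPE-1 its values were 2083 to 2672 in the 9 libraries, with log2 fold changes of 0.12 and -0.10 that were not called.

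Glycosaminoglycan hydrolases were called in both directions, with 16.7% for each single call beside the shares of all genes given for the proteases. Of 6 members, 1 was higher and 1 lower with each mimic in MCF10A, 1 higher and 2 lower with miR-28 in RPE-1, and 1 higher and 3 lower with miR-708. SGSH, the heparan sulfate sulfamidase, was 98.4, 126 and 74.8 with siNT in RPE-1, 214, 290.4 and 280 with miR-28, and 266, 281.6 and 305 with miR-708, with log2 fold changes of 1.40 and 1.53 (adjusted p = 0.00026 and 6.55e-05, limma with Benjamini-Hochberg adjustment).

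NAGLU, which acts on the same glycan as SGSH, moved down in RPE-1. It was 779, 814 and 759 with siNT, 441, 488 and 490.4 with miR-28, and 393, 474 and 412 with miR-708. These were log2 fold changes of -0.73 and -0.88 (adjusted p = 0.000283 and 3.58e-05, limma with Benjamini-Hochberg adjustment).

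IDS, iduronate-2-sulfatase, was called in opposite directions with miR-708 in the lines. The MCF10A values were 1209, 1046 and 1092 with siNT, 1608, 1534 and 1536 with miR-28, and 1500, 1406 and 1813 with miR-708 (log2 fold changes 0.48 and 0.49, adjusted p = 0.0101 and 0.00594, limma with Benjamini-Hochberg adjustment). The RPE-1 values were 6563, 7336 and 7119 with siNT, 6342, 6573 and 5941 with miR-28, and 5447, 5801 and 4913 with miR-708. The change there was -0.16 (adjusted p = 0.174) with miR-28 and -0.38 (adjusted p = 0.00354, limma) with miR-708. The last was -0.06 under library size scaling and -0.20 under quantile normalization, neither called.

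Of 3 genes of cholesterol handling, 2 were called higher with each mimic in RPE-1, NPC1 and LIPA, beside 23.3% (miR-28) and 30.9% (miR-708) of all genes. The other, NPC2, the soluble cholesterol carrier, had log2 fold changes of -0.30 (adjusted p = 0.0677) and -0.43 (adjusted p = 0.0117, called lower) there, by limma with Benjamini-Hochberg adjustment. NPC1, which exports cholesterol from the lysosome, was 2185, 2226 and 2185 with siNT in RPE-1, 4143, 4433 and 4070 with miR-28, and 6790, 6903 and 7458 with miR-708. The 3 groups did not overlap, and the log2 fold changes were 0.94 and 1.68 (adjusted p = 6.8e-06 and 8.93e-08, limma with Benjamini-Hochberg adjustment). In MCF10A they were 0.17 (adjusted p = 0.412) and 0.61 (adjusted p = 0.00703, limma).

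SCARB2, the membrane protein that carries glucocerebrosidase to lysosomes, was chosen for description after its 8mer was seen. In MCF10A it was 6523, 5676 and 5729 with siNT, 3997, 4602 and 4491 with miR-28, and 5784, 5613 and 5673 with miR-708. The miR-28 group lay below siNT (log2 fold change -0.45, Benjamini-Hochberg adjusted p = 0.00652 by limma) and the miR-708 group overlapped it (-0.07, adjusted p = 0.613). In RPE-1 it was 17974, 19145 and 22023 with siNT, 10545, 22384 and 14591 with miR-28, and 15253, 19290 and 18024 with miR-708, with changes of -0.38 and -0.17 that were not called. Without miR-28 replicate 2, the first was -0.66 (adjusted p = 0.00697, limma). Of the members with an 8mer in the 3′ UTR, PSAP was called in 4 of 4 comparisons and SCARB2 in 1 of 4. PSAP was included as a labelled target and the comparisons of a line share siNT libraries, so this does not test 8mers.

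TFEB, the transcription factor of the CLEAR network, had low values throughout. Its values in MCF10A were 139, 136 and 130 with siNT, 107, 87.9 and 98.6 with miR-28, and 121, 113 and 93.6 with miR-708. RPE-1 libraries held 196, 224 and 236, then 136, 144 and 140, then 118, 126 and 111. All mimic libraries were below siNT, with log2 fold changes of -0.63 and -0.88 in RPE-1 (adjusted p = 0.00319 and 0.000232, limma with Benjamini-Hochberg adjustment). In MCF10A they were -0.46 (adjusted p = 0.0961, limma, and 0.0405 under quantile normalization) and -0.31 (adjusted p = 0.227).

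Promoters of the members, some of which hold the core of the CLEAR motif, are shown next. They were chosen for display after the values were seen. The RefSeq promoter table (GRCh38.p14, 250 bases before to 50 after each start) held 26 of the 36 members. PSAP was not among them, so its promoter was not searched for the core. The core CACGTG, which reads the same on both strands, was in 8 of the 26 (30.8%). It was in 9.96% of tested genes with a promoter in either line and in 7.43% of all 27305 promoters. On the longer list of lysosomal genes, 14 of 60 in MCF10A (23.3%) and 14 of 61 in RPE-1 (23%) held it. The core with a T before or an A after it was in 7 of the 26 (26.9%), with CD63 left out, beside 5.7% of tested genes in MCF10A and 5.79% in RPE-1. Capitals mark the core in the examples, given on the strand of the gene.
LAMP1, chromosome 13, 113297211 to 113297216, plus strand: cgcgggatCACGTGacgcccgg
CTSA, chromosome 20, 45891310 to 45891315, plus strand: ccggagttCACGTGactcgtac
NEU1, chromosome 6, 31862942 to 31862947, minus strand: tgcgtgatCACGTGggaggaga
MCOLN1, chromosome 19, 7522610 to 7522615, plus strand: taccgggtCACGTGaccgaggc
CTSD, chromosome 11, 1763969 to 1763974, minus strand: gccgcgccCACGTGaccggtcc

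LAMP1 held 6 such cores, CTSA, GALNS and MCOLN1 2 each, and the others 1. Of the 8, LAMP1, CTSA, NEU1, CD63 and MCOLN1 were higher with both mimics in RPE-1, CTSD was lower with both, and GALNS and ATP6V0D1 were not called. Of all genes tested in RPE-1, 20.1% were called higher with both mimics and 20.8% lower with both. Members with a listed promoter but no core were called there too. CTSL, GLB1, GRN, NPC1, LIPA and PPT1 were higher with both mimics, and MAN2B1, ARSB and TFEB were lower with both. In MCF10A 1 of the 8 was higher with miR-28, beside 10.7% of all genes, and 4 with miR-708, beside 15.5%. NEU1, the lysosomal sialidase, had log2 fold changes of 0.89 and 1.34 in RPE-1, and CTSA, the protective protein that stabilizes it, 0.62 and 0.47 (adjusted p = 0.000168, 4.85e-06, 0.000687 and 0.00206, limma with Benjamini-Hochberg adjustment). Both were named after their values were seen, and a core is a stretch of letters and not a sign that a factor bound.

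The lines were compared through their fold changes, because the tables were scaled separately. The response to miR-28 differed between RPE-1 and MCF10A for 12 members, beside 23.4% of all genes, 9 with the higher value in RPE-1 (12.1%) and 3 with the lower (11.3%). For miR-708 it differed for 16, beside 39.8% of all genes, of which 5 were higher in RPE-1 (20.2%) and 11 lower (19.6%). The first count was 5 without MCF10A siNT replicate 8 or 9 and 7 without RPE-1 siNT replicate 1. The lines differ also in tissue, culture and replicate numbering, and these cannot be told apart.

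For PSAP the difference of RPE-1 minus MCF10A was -0.15 with miR-28 (95% interval -0.51 to 0.20, adjusted p = 0.552) and -0.65 with miR-708 (-0.999 to -0.29, adjusted p = 0.00483), from the limma fits. The second was -0.22 under quantile normalization and no longer called (adjusted p = 0.336). For CTSD with miR-708 it was -0.87 (adjusted p = 0.000925) and for IDS -0.64 and -0.87 with miR-28 and miR-708 (adjusted p = 0.00278 and 6.17e-05), again from the limma fits.

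The largest differences with miR-28 were 0.94 for SGSH, -0.92 for ARSA, 0.88 for CTSL and 0.84 for ASAH1 (adjusted p = 0.0328, 0.0418, 0.0294 and 0.00158, limma fits with Benjamini-Hochberg adjustment). That of ASAH1 held with each library left out. Each of the others was lost without MCF10A miR-28 replicate 7, MCF10A siNT replicate 8 or 9, or RPE-1 siNT replicate 1. SGSH was also lost without MCF10A miR-28 replicate 8, RPE-1 miR-28 replicate 2 or 3 or RPE-1 siNT replicate 3. ARSA was also lost without MCF10A miR-28 replicate 9, MCF10A siNT replicate 7, RPE-1 miR-28 replicate 1 or 3 or RPE-1 siNT replicate 2, and CTSL without RPE-1 miR-28 replicate 2 or RPE-1 siNT replicate 2.

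With miR-708 the largest were -1.70 for SMPD1, 1.13 for GLA, 1.08 for SGSH and 1.07 for NPC1 (adjusted p = 0.0016, 0.000145, 0.00905 and 5.49e-05, limma fits with Benjamini-Hochberg adjustment). These 4 held with each library left out. SMPD1 rose in MCF10A and its RPE-1 value was -0.10, whereas GLA rose in RPE-1 and its MCF10A value was 0.01.

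**Figure D4:**
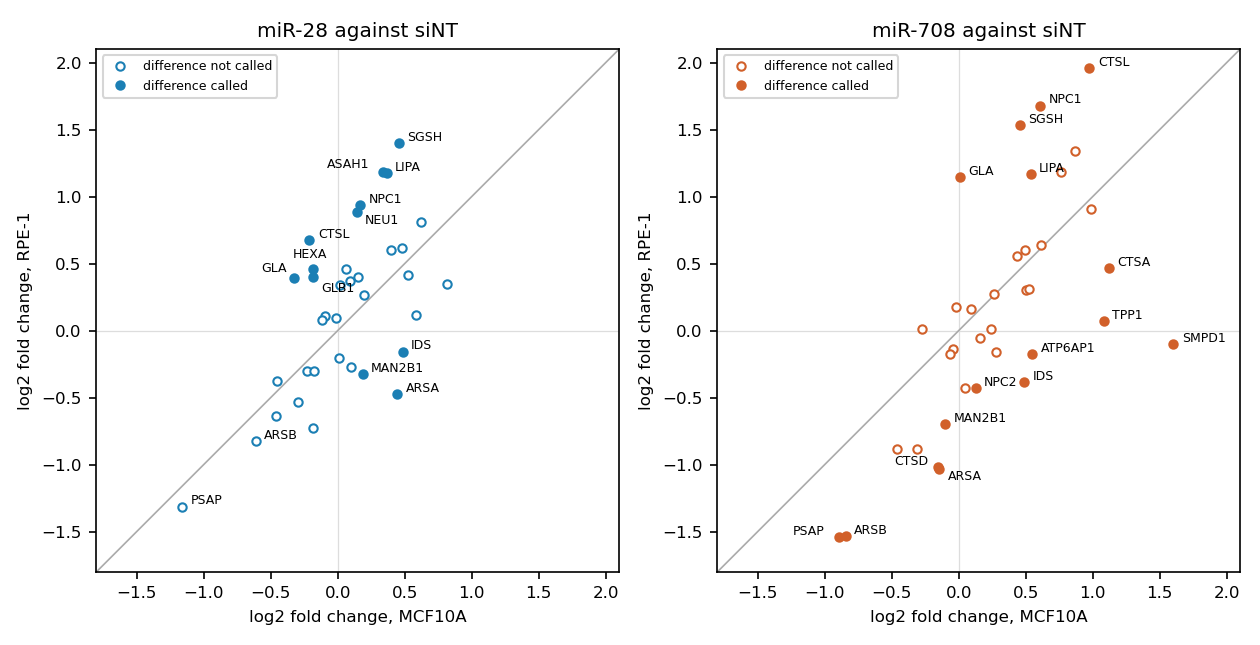
Log2 fold change of the 36 members in RPE-1 (vertical) against MCF10A (horizontal) with miR-28 (left) and miR-708 (right), with the line of equal change. Filled, named points differed between the lines (12 members with miR-28, 16 with miR-708), and PSAP and ARSB are named in both panels, at the lower left.

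A longer list of other lysosomal genes gives the setting of the 36. In MCF10A, 13 of 79 tested were higher and 5 lower with miR-28, and 33 higher and 6 lower with miR-708. These were 16.5% and 6.33%, then 41.8% and 7.59%, beside 10.7% and 12%, then 15.5% and 17.3%, of all genes. In RPE-1, 30 of 80 were higher and 21 lower with miR-28, and 35 higher and 23 lower with miR-708. There the shares were 37.5% and 26.2%, then 43.8% and 28.7%, beside 23.3% and 23.5%, then 30.9% and 31.2%, of all genes, so the lower counts were near the background. Their median log2 fold changes were 0.14, 0.22, 0.12 and 0.13 in that order. Genes higher in all 4 comparisons included FUCA1, CTSO, TMEM192, CLCN7, OSTM1 and ATP6V0B, and 2 were lower in all 4 (ABCA2 and ATP6V1A). With miR-28 in MCF10A the calls of ABCA2 (-0.51) and FUCA1 (1.24) were lost without miR-28 replicate 8 or 9 or siNT replicate 7 or 9. That of ABCA2 was also lost without siNT replicate 8 and under library size scaling (-0.40). In all, they were lost in 7 (ABCA2) and 5 (FUCA1) of 17 alternatives, with adjusted p up to 0.121 and 0.083 (limma).

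ATP6V1A, the catalytic subunit of the proton pump that acidifies lysosomes, was 3926, 3514 and 4381 with siNT in MCF10A, 2144, 1805 and 1478 with miR-28, and 2199, 1628 and 1621 with miR-708. The RPE-1 values were 3661, 3385 and 4153, then 1783, 1774 and 1472, then 1562, 1832 and 1464. The groups did not overlap, and the log2 fold changes were -1.13 and -1.13 in MCF10A and -1.15 and -1.21 in RPE-1 (adjusted p from 1.07e-05 to 0.000917, limma with Benjamini-Hochberg adjustment). Of the 13 pump subunits on this list, ATP6V1A included, 3 were higher and 1 lower with miR-28 in MCF10A, and 8 and 1 with miR-708. These were 23.1% and 7.69%, then 61.5% and 7.69%, beside 10.7% and 12%, then 15.5% and 17.3%, of all genes. In RPE-1, 7 were higher and 2 lower with miR-28, and 8 and 2 with miR-708, the other lower one being ATP6V1C1 (-0.32 and -0.33). The shares there were 53.8% and 15.4%, then 61.5% and 15.4%, beside 23.3% and 23.5%, then 30.9% and 31.2%, of all genes. The 3 pump members of the 36 had 1 higher call, ATP6AP1 with miR-708 in MCF10A, and 1 lower, the same gene with miR-28 in RPE-1. Each is 33.3% of the 3, beside 15.5% and 23.5% of all genes.

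GALC, the galactosylceramidase, a saposin-assisted hydrolase outside the 36, was 621 to 734 with siNT in RPE-1, 239 to 288 with miR-28 and 209 to 320 with miR-708, a log2 fold change of -1.36 and -1.35 (adjusted p = 8.34e-05 and 3.77e-05, limma with Benjamini-Hochberg adjustment). GALC was not called with either mimic in MCF10A. CTSC, the dipeptidyl peptidase cathepsin C, fell in MCF10A (-0.81 and -0.57) and rose in RPE-1 (0.45 and 1.21), each called. MITF, a relative of TFEB, went the other way, with 0.94 and 0.75 in MCF10A and -0.80 and -0.56 in RPE-1, each called, the last not under library size scaling (-0.24, adjusted p = 0.0536, limma). CD68, a lysosomal membrane protein also used as a macrophage marker, had log2 fold changes of 0.42 and 1.66 in MCF10A and 2.06 and 4.04 in RPE-1, of which the first was not called. These 4 genes were named after their values were seen.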

How the data were processed

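PolyA+ RNAseq had been done on 18 libraries, 3 biological replicates of each of 3 groups in each of 2 lines. The authors trimmed reads, aligned them to hg38 with HISAT2 2.1.0, and estimated reads per RefSeq gene in Partek Flow. The deposited values are a normalised signal, estimated reads divided by a size factor for each library, 1 table per line, and are not raw counts. Whole reads could not be recovered, since only 82.3% to 86.0% of low values in MCF10A libraries and 83.5% to 86.7% in RPE-1 libraries were within 0.02 step of a whole multiple (values under 12 steps). Counts were therefore not modelled. At the estimated depths, 3 reads correspond to values of 2.49 to 4.03 in MCF10A and 2.36 to 4.41 in RPE-1, which covers counting error only. Tables of the authors' own fold changes, p-values and group means were not used.

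Values were tested as log2(value + 1) with limma 3.58.1 in R 4.3.3, on genes that reached a value of 10 in 3 or more libraries of the line (14726 genes in MCF10A, 14527 in RPE-1). One fit per line held the 3 group means, with a variance trend over the mean, and p-values were adjusted by the Benjamini-Hochberg method over all genes, with calls at adjusted p below 0.05. A fold change on this scale understates the change of low genes. Responses of the lines were compared as the difference of their log2 fold changes, with standard errors combined and degrees of freedom approximated, over 13339 genes. The steps were tested on simulated data with known changes.

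Replicate numbers paired the libraries where same-numbered libraries deviated together in every pair (correlation over 0.1). This held for mimic and siNT in MCF10A (0.263, 0.176 and 0.111 for miR-28, 0.302, 0.115 and 0.155 for miR-708). It held also for the mimics in RPE-1 (0.278, 0.198 and 0.134), and not for the other comparisons. For the mimics in MCF10A the values were 0.121, 0.025 and 0.177, so replicate 8 missed the limit. No separate cultures beyond the biological replicate label are described, so p-values measure the spread between these libraries.

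Members and gene lists were chosen with earlier results of these data known. Genes named by rule were PSAP, GRN, CTSD, LAMP1 and TFEB, up to 5 lowest and 5 highest members with both mimics per line that did not overlap siNT, and up to 4 members with the largest differences between mimics and between lines. Genes outside the rule were named after their values were seen. Seed matches were searched in 1 GENCODE transcript per gene on hg38, and promoters were taken from RefSeq (GRCh38.p14). Alternatives were the pseudocount (5), filters (none, 50), library size scaling, quantile normalization, a fit of 2 groups only, no variance trend, the replicate block, and each library left out.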

Additional observations from a re-analysis of the deposited data

Results flagged for a closer look

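The response to a mimic differed between the lines for 12 members with miR-28 and 16 with miR-708, by the test of the difference itself (limma fits, Benjamini-Hochberg adjustment over all genes). Of all genes tested in both lines, 23.4% differed with miR-28 (12.1% higher and 11.3% lower in RPE-1). With miR-708 39.8% did (20.2% and 19.6%). All values are log2 fold changes in RPE-1 minus those in MCF10A.

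With miR-28, the response was lower in RPE-1 for ARSA (-0.915), IDS (-0.641) and MAN2B1 (-0.509). It was higher in RPE-1 for GLB1 (0.581), HEXA (0.646), GLA (0.716), NEU1 (0.745), NPC1 (0.77), LIPA (0.809), ASAH1 (0.842), CTSL (0.883) and SGSH (0.942).

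With miR-708, it was lower in RPE-1 for the hydrolases SMPD1 (-1.7), TPP1 (-1.01), ARSA (-0.891), IDS (-0.87), CTSD (-0.865), ARSB (-0.689), CTSA (-0.653) and MAN2B1 (-0.593). It was also lower for ATP6AP1 (-0.727), an accessory subunit of the proton pump, for PSAP (-0.645) and for NPC2 (-0.556), a cholesterol carrier. It was higher in RPE-1 for LIPA (0.627), CTSL (0.982), NPC1 (1.07), SGSH (1.08) and GLA (1.13).

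ARSA, IDS and MAN2B1 were lower, and GLA, NPC1, LIPA, CTSL and SGSH higher, with both mimics. These comparisons share their siNT libraries. The interferon-stimulated sums given above also differed between the lines with miR-28, and their part in these differences was not tested.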

How the results depend on the processing

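The fall of PSAP against siNT was called under every alternative run in both lines. Under library size scaling, 8 members and 23 other lysosomal genes were higher with miR-28 in MCF10A, beside 2275 of 14751 genes. The member medians in RPE-1 were 0.389 (miR-28) and 0.361 (miR-708), beside 0.092 and 0.32 for all genes. Between the mimics in MCF10A 2 members differed, beside 204 genes higher and 31 lower. Under quantile normalization, 4 members were lower with miR-28 in RPE-1, beside 3260 of 14527 genes. The member medians in RPE-1 were then 0.369 and 0.243, and the PSAP line difference with miR-708 was -0.215. PSAP differences that were not called reversed, to 0.008057 (library size) and 0.005004 (quantile) between the mimics in RPE-1 and to 0.03239 (quantile) between the lines with miR-28. Without the variance trend, 2 members and 6 other lysosomal genes were higher with miR-28 in MCF10A, 0 members differed between the mimics in MCF10A, and 6 differed between the lines with miR-28. With 2 groups only, 0 differed between the mimics in MCF10A. The cause was not tested.

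With the replicate block, 8 members were higher with miR-28 in MCF10A, beside 2129 of 14726 genes. Between the mimics there 9 members differed, beside 429 genes higher and 214 lower. Same-numbered mimic libraries of MCF10A had correlations of 0.121, 0.025 and 0.177, so replicate 8 missed the limit of 0.1 for pairing. Between the mimics in RPE-1 the block gave 11 members in place of 10, with HEXA (adjusted p = 0.0335) and ARSA (0.0394) gained and MAN2B1 (0.0507, limma) lost.

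With each library left out, members higher with miR-28 in MCF10A ranged from 2 to 7 and other lysosomal genes from 4 to 18. Members lower with miR-28 in RPE-1 ranged from 4 to 9, and the medians from 0.225 to 0.331 (miR-28) and from -0.035 to 0.114 (miR-708). Members differing between the mimics ranged from 0 to 1 in MCF10A and 6 to 11 in RPE-1, and between the lines with miR-28 from 5 to 13.

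Uncalled values near 0 that reversed were GLA with miR-708 in MCF10A (-0.005273 under quantile normalization, -0.03279 to 0.09847 with libraries left out), SCARB2 with miR-708 (0.07545 and 0.007667 in MCF10A, 0.1475 and 0.2886 in RPE-1, library size and quantile), SMPD1 with miR-708 in RPE-1 (0.2198, library size), TPP1 with miR-708 in RPE-1 (-0.03511 to 0.1463) and CTSL with miR-28 in MCF10A (-0.348 to 0.02884).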
